A study of Mus musculus with 12 samples.

Results

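The genes described are 31 members of cholesterol and fatty acid synthesis, chosen by symbol among the 78317 genes of a series of 12 RNA-seq libraries from mouse 4T1 cells. Each of the 31 symbols matched 1 gene, and 30 passed the filter on low counts that left 14012 genes for testing. Abca1 did not pass. The 4T1 line is a mouse model of triple-negative breast cancer grown here in culture, without a host. Its 4 groups were PBRM1 KO cells with TGFβ1, untreated PBRM1 KO cells, control cells with TGFβ1 and untreated control cells, with n = 3 biological replicates each. TGFβ1 was given at 5 ng/ml for 4 days in medium with fetal bovine serum, which carries cholesterol and lipoproteins. The library names carry the short forms sgCt and sgPB. The sources used here do not give whether the KO cells are 1 clone or a pool, nor where the gene was cut. The sample titles place the untreated cells at 0 h while the protocol speaks of cells with or without TGFβ1 for 4 days, so TGFβ1 and time in culture cannot be told apart with certainty. PBRM1 belongs to PBAF, a variant of the SWI/SNF complex that remodels chromatin.

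Cells make cholesterol from acetyl-CoA through mevalonate, farnesyl diphosphate, squalene and lanosterol. When sterols in the endoplasmic reticulum run low, SCAP carries the membrane-bound factors SREBP1 and SREBP2 to the Golgi, where they are cut and freed to enter the nucleus, and INSIG1 and INSIG2 hold that complex back when sterols are plentiful. SREBP2, the product of Srebf2, is best known for driving sterol genes, and SREBP1, the product of Srebf1, for driving fatty acid genes. Oxysterols activate the LXR receptors, which raise the cholesterol exporters Abca1 and Abcg1.

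Libraries held 9265693 to 11250850 deduplicated 3′ end counts, and values below are CPM (library-scaled counts) as deposited. A gene gives about 1 tag per molecule in this assay, so CPM was not divided by length and is compared between samples, not between genes. Counts of 5 mammary carcinoma markers (Epcam, Krt8, Krt18, Krt19, Cdh1) summed to 1893 to 1961 CPM in PBRM1 KO cells with TGFβ1, 2191 to 2350 CPM in untreated PBRM1 KO cells, 1623 to 1820.1 CPM in control cells with TGFβ1 and 2304 to 2401 CPM in untreated control cells. The 5 leukocyte markers summed to at most 0.284 CPM, the 3 endothelial markers to at most 1.17 CPM and the 4 adipocyte markers to at most 0.958 CPM, with Plin1 and Cidec at 0 in every library. The TGFβ1 libraries numbered 3 stood apart in both genotypes. The median of 11 tested TGFβ response genes stood above its untreated control mean by log2 1.79, 1.80 and 0.74 in the 3 PBRM1 KO libraries with TGFβ1 and by 1.54, 1.93 and 1.14 in the 3 control libraries with TGFβ1. Counts of calls were therefore also taken without these 2 libraries. In bulk cultures, fewer cells expressing a gene and less RNA per cell cannot be told apart.

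Promoter sequences of 24 of the 31 members were found in RefSeq (GRCm38.p6, 250 bases before to 50 after an annotated start). Of the 24, 5 have more than 1 window, and a gene counts as holding a motif where any of its windows does. Searched on both strands, the CCAAT box (CCAAT), bound by NF-Y, which is known to act beside SREBPs, stood in 20 of the 24 members, or 83.3%, against 41.1% of all 27025 genes with a window. By window it stood in 21 of 32 member windows, or 65.6%, against 37.4% of all windows. The sterol regulatory element TCACNCCAC stood in 1 of the 24 members (4.17%) against 1.44% of all genes, and the E-box CACGTG in 6 of the 24 (25%) against 8.09%. The 5 windows below are from sterol enzymes described in the results. Hmgcs1 is shown because it held the only member match to the sterol element, Idi1, Mvk and Msmo1 because they were lower with TGFβ1, and Sc5d because it was higher. Capitals mark sterol elements and CCAAT boxes on either strand (ATTGG where the box lies on the other strand), and each window is written 5′ to 3′ on the gene's own strand.
Hmgcs1, chr13:119690101-119690400, plus strand: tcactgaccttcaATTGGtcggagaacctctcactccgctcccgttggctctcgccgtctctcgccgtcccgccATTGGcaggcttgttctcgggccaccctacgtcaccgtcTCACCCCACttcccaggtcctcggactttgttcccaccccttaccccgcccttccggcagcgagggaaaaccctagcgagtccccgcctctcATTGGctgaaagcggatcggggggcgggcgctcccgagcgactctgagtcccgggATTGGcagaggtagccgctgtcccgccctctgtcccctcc
Idi1, chr13:8885356-8885655, plus strand: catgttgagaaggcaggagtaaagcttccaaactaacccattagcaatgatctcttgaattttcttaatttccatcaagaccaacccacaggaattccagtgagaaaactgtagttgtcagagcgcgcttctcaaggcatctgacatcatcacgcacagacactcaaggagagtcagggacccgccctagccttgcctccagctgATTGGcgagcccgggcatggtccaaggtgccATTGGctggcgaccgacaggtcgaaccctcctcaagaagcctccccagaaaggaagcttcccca
Mvk, chr5:114444019-114444318, plus strand: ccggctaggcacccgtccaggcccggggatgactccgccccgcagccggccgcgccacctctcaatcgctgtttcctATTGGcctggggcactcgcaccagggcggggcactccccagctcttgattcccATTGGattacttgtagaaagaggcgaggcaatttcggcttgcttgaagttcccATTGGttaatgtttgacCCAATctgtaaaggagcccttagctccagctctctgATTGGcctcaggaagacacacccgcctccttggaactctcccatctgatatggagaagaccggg
Msmo1, chr8:64733529-64733828, minus strand: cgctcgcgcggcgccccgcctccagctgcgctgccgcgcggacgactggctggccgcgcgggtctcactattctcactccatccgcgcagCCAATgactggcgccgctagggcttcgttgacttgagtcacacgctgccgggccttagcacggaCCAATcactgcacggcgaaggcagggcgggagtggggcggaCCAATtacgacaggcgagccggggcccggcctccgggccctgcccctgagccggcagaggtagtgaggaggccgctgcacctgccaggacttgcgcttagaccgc
Sc5d, chr9:42264251-42264550, minus strand: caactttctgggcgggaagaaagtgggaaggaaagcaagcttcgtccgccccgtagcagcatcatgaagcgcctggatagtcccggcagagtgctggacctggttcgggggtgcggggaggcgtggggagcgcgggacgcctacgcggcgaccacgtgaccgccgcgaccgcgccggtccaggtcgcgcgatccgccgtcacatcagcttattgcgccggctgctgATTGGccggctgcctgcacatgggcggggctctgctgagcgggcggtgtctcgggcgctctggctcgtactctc
With the annotated start base counted as 0, the sterol element of Hmgcs1 began at −137. CCAAT boxes began at −45 and −14 in Idi1 and at −160, −96 and −55 in Msmo1. A match is a description of these letters and not a measured binding site.

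With TGFβ1, several enzymes of cholesterol synthesis were lower, and Npc1 and Abcg1, which move cholesterol out of lysosomes and out of cells, were higher. Averaged over both genotypes, 8 of the 30 tested members fell and 3 rose (edgeR quasi-likelihood test, adjusted p below 0.05). That is 36.7% of the members, beside 25.7% of all genes tested, of which 2110 were higher and 1488 lower. The 8 that fell were Idi1, Mvk, Sqle, Lss, Cyp51, Msmo1, Dhcr7 and Stard4, and the 3 that rose were Sc5d, Npc1 and Abcg1. The same comparison without the TGFβ1 libraries numbered 3 called 11 members, 7 lower and 4 higher, beside 41.4% of all genes; Cyp51 was no longer called and Ebp was. So the share of members called was above that of all genes with these libraries and not above it without them.

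**Figure D1:**
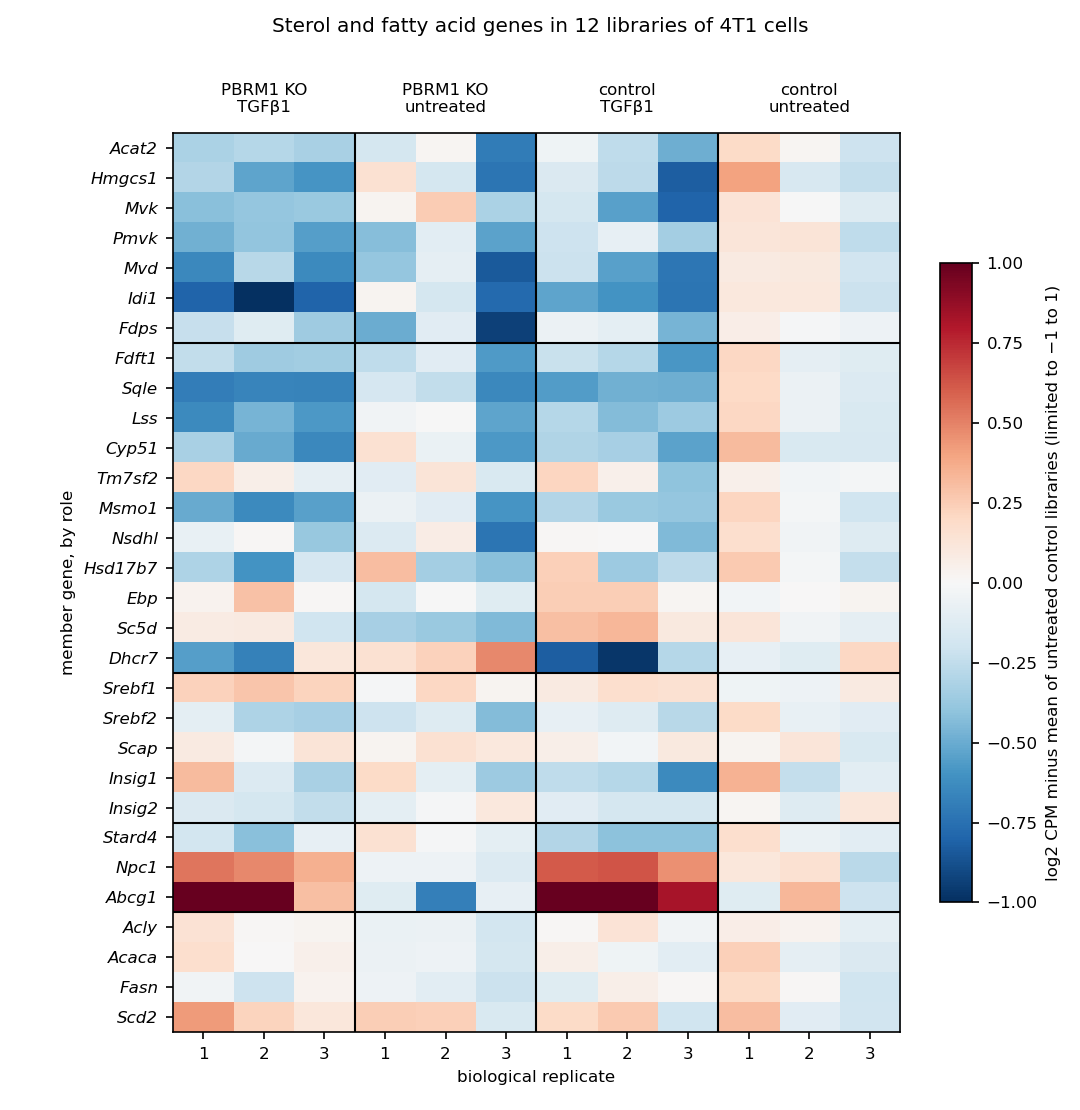
Level of the 30 tested members (rows, grouped by role) in each of the 12 libraries (columns), as log2 CPM minus the mean of the untreated control libraries, with colours limited to −1 to 1. Blue fills most mevalonate and sterol rows in the TGFβ1 libraries and in untreated PBRM1 KO replicate 3, while Npc1 and Abcg1 are red in the TGFβ1 libraries.

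Within 1 genotype the calls were fewer. In PBRM1 KO cells 3 of 30 members passed with TGFβ1, with Npc1 and Sc5d higher and Idi1 lower, beside 11.4% of all genes. In control cells 4 of 30 passed, with Npc1 and Abcg1 higher and Idi1 and Sqle lower, beside 8.81% of all genes. In PBRM1 KO cells the deviations of same-numbered libraries correlated at 0.139 to 0.202, which does not establish that numbers are paired. With the replicate number as a block 8 members were called there, beside 19.8% of all genes. Npc1, Sc5d and Abcg1 were higher, and Idi1, Sqle, Cyp51, Msmo1 and Dhcr7 lower. Leaving out 1 library at a time gave 0 to 5 members in PBRM1 KO cells and 0 to 4 in control cells. In PBRM1 KO cells the count was 0 without TGFβ1 replicate 1 or 2 or untreated replicate 1 or 2, and 5 without TGFβ1 replicate 3. In control cells it was 0 without TGFβ1 replicate 2, 1 without TGFβ1 replicate 1 or untreated replicate 1 or 3, and 2 without untreated replicate 2. Without both TGFβ1 libraries numbered 3 it was 5 beside 27.9% of all genes in PBRM1 KO cells and 6 beside 23.9% in control cells. The median log2 fold change of the 30 members was −0.02 in PBRM1 KO cells and −0.18 in control cells, with that of all genes at 0.00 in both, and 22 of 30 members lay below 0 in control cells. By scaled log2 CPM, 5 members were lower and 7 higher in every TGFβ1 library than in any untreated one in PBRM1 KO cells, where 14% and 16.1% of all genes were. In control cells 12 members were lower and 2 higher in this way, where 11.5% and 14.6% of all genes were.

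**Figure D2:**
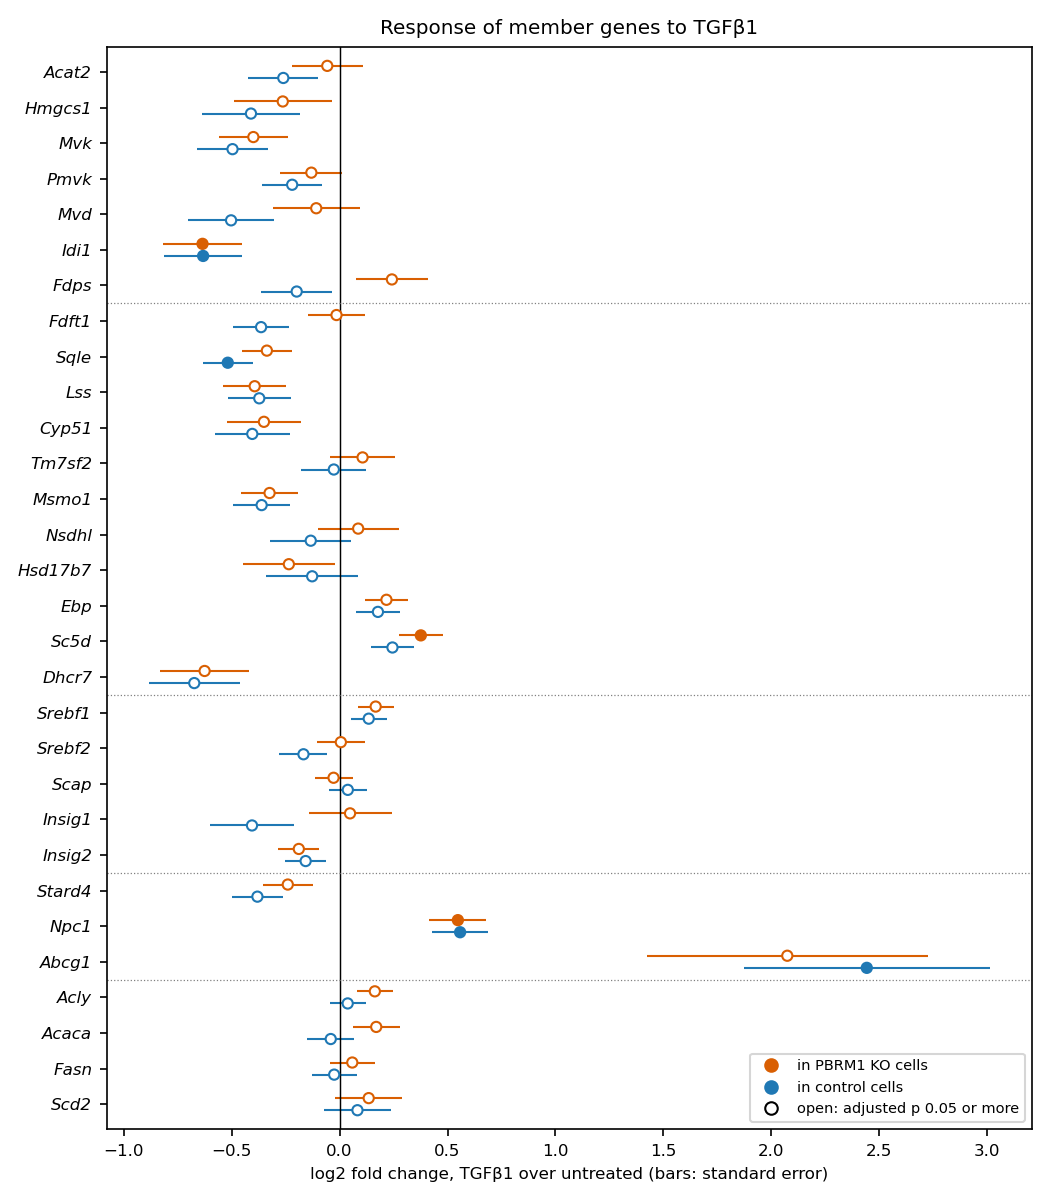
Log2 fold change of each tested member with TGFβ1 over untreated cells (points, with standard errors as bars) in PBRM1 KO cells and in control cells, with filled points for adjusted p below 0.05. Idi1 and Npc1 are filled in both genotypes, Sc5d in PBRM1 KO cells, and Sqle and Abcg1 in control cells.

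Of the 7 enzymes from acetyl-CoA to farnesyl diphosphate, Idi1 and Mvk fell with TGFβ1 averaged over both genotypes and 0 rose, beside 25.7% of all genes called in either direction. That share of the 7 is near the share of all genes. Idi1, the isomerase that makes the allylic isoprenoid unit, was counted at 12.1, 9.54 and 11.7 CPM in PBRM1 KO cells with TGFβ1, against 21.0, 18.4 and 12 CPM in untreated PBRM1 KO cells, and 14.3, 13.7 and 12.3 CPM in control cells with TGFβ1, against 22.8, 22.1 and 17.6 CPM in untreated control cells. Every TGFβ1 library lay below every untreated one in control cells, and in PBRM1 KO cells untreated replicate 3 reached down to the TGFβ1 libraries. Its log2 fold change was −0.63 ± 0.18 (adjusted p = 0.0418) in PBRM1 KO cells, −0.63 ± 0.18 (adjusted p = 0.0454) in control cells and −0.63 ± 0.13 (adjusted p = 0.00316) averaged over both. Idi1 had fractional counts in 11 libraries, so its level is uncertain to the extent that reads fit other genes. Mvk, the kinase that gives the pathway its first phosphorylated mevalonate, was counted at 24.5, 24.6 and 24.6 CPM in PBRM1 KO cells with TGFβ1, against 32.4, 38.4 and 25.6 CPM in untreated PBRM1 KO cells, and 28.4, 22.1 and 18.1 CPM in control cells with TGFβ1, against 35.8, 31.7 and 28.8 CPM in untreated control cells. The groups did not overlap in either genotype, and the averaged change was −0.45 ± 0.11 (adjusted p = 0.012), with −0.40 ± 0.16 (adjusted p = 0.129) in PBRM1 KO cells and −0.50 ± 0.16 (adjusted p = 0.0763) in control cells.

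Hmgcs1, the cytosolic HMG-CoA synthase and a standard SREBP2 target, was counted at 109.9, 91.9 and 86.8 CPM in PBRM1 KO cells with TGFβ1, against 146, 117 and 79.5 CPM in untreated PBRM1 KO cells, and 119.7, 111 and 73.7 CPM in control cells with TGFβ1, against 178, 117 and 109.7 CPM in untreated control cells. The groups overlapped in both genotypes, and its averaged change of −0.34 ± 0.16 (adjusted p = 0.141) did not pass, though it did in the fit with the replicate block (adjusted p = 0.00797, and 0.0253 in control cells alone). Acat2, the cytosolic acetoacetyl-CoA thiolase, ran from 47.5 to 89.7 CPM over all libraries, with log2 fold changes between −0.26 and −0.06 in the 4 contrasts between single groups. Pmvk, which phosphorylates phosphomevalonate, ran from 14.0 to 23.1 CPM with changes between −0.36 and −0.13. Mvd, the decarboxylase that makes isopentenyl diphosphate, ran from 5.36 to 10.6 CPM with changes between −0.50 and −0.03. Fdps, which makes farnesyl diphosphate, ran from 133 to 271 CPM with changes between −0.48 and 0.24. None of these 4 passed in any contrast in the main edgeR fit. With the replicate block Pmvk passed for PBRM1 KO against control averaged over treatments (adjusted p = 0.0306). With it Mvd also passed, for TGFβ1 in control cells (adjusted p = 0.0393). Without the block Fdps passed for PBRM1 KO against control untreated when no filter was used. Mvd passed for averaged TGFβ1 without untreated PBRM1 KO replicate 3.

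Of the 11 enzymes from squalene to cholesterol, 5 fell and 1 rose with TGFβ1 averaged over both genotypes, beside 25.7% of all genes called, of which fewer were lower (1488) than higher (2110). Sqle, squalene epoxidase, an oxygen-using step that is rate-limiting in many cells, was counted at 176, 176 and 174 CPM in PBRM1 KO cells with TGFβ1, against 246, 235 and 178 CPM in untreated PBRM1 KO cells, and 189, 201 and 195 CPM in control cells with TGFβ1, against 325, 265 and 248 CPM in untreated control cells. All TGFβ1 libraries lay below the untreated ones of their genotype, by a narrow margin for untreated PBRM1 KO replicate 3. Its log2 fold change was −0.34 ± 0.12 (adjusted p = 0.0812) in PBRM1 KO cells, −0.52 ± 0.12 (adjusted p = 0.0169) in control cells and −0.43 ± 0.08 (adjusted p = 0.00236) averaged over both. Lss, lanosterol synthase, which closes the sterol rings, was counted at 13.2, 14.6 and 13.4 CPM in PBRM1 KO cells with TGFβ1, against 19.6, 20.2 and 14.0 CPM in untreated PBRM1 KO cells, and 16.6, 15.0 and 15.5 CPM in control cells with TGFβ1, against 23.8, 19.3 and 17.9 CPM in untreated control cells. Control groups did not overlap, PBRM1 KO groups did, and the averaged change was −0.38 ± 0.10 (adjusted p = 0.0159).

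Cyp51, the demethylase that acts on lanosterol, was counted at 58.2, 50.5 and 45.1 CPM in PBRM1 KO cells with TGFβ1, against 78.3, 68.1 and 47.7 CPM in untreated PBRM1 KO cells, and 57.8, 57.0 and 48.5 CPM in control cells with TGFβ1, against 90.0, 63.4 and 62.7 CPM in untreated control cells. Control groups did not overlap and PBRM1 KO groups did. Its averaged change of −0.38 ± 0.12 (adjusted p = 0.0367) was the least steady of the 11 calls: it passed in 6 of 12 fits that left out 1 library and did not pass without both TGFβ1 libraries numbered 3. Msmo1, the methyl oxidase that works on the same branch with Nsdhl and Hsd17b7, was counted at 196, 175 and 185 CPM in PBRM1 KO cells with TGFβ1, against 258, 252 and 179.7 CPM in untreated PBRM1 KO cells, and 221, 211 and 205 CPM in control cells with TGFβ1, against 320.2, 265 and 232 CPM in untreated control cells. Control groups did not overlap, untreated PBRM1 KO replicate 3 again lay among the TGFβ1 libraries, and the averaged change was −0.34 ± 0.09 (adjusted p = 0.0165).

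Dhcr7, the reductase that makes cholesterol from its last precursor in one branch, was counted at 33.8, 30.4 and 51.8 CPM in PBRM1 KO cells with TGFβ1, against 53.4, 57.1 and 67.7 CPM in untreated PBRM1 KO cells, and 27.3, 24.7 and 39.2 CPM in control cells with TGFβ1, against 46.6, 44.0 and 54.8 CPM in untreated control cells. The groups did not overlap within a genotype, and in all 4 groups replicate 3 was the highest library, so that TGFβ1 replicate 3 lay nearest to the untreated libraries. The averaged change was −0.65 ± 0.15 (adjusted p = 0.00625), with −0.63 ± 0.21 (adjusted p = 0.0682) in PBRM1 KO cells and −0.67 ± 0.21 (adjusted p = 0.0642) in control cells. Sc5d, the desaturase that makes the substrate of Dhcr7, moved the other way and was counted at 84.1, 83.0 and 67.0 CPM in PBRM1 KO cells with TGFβ1, against 61.3, 60.3 and 57.0 CPM in untreated PBRM1 KO cells, and 96.0, 98.6 and 81.9 CPM in control cells with TGFβ1, against 86.0, 75.2 and 71.8 CPM in untreated control cells. PBRM1 KO groups did not overlap, and in control cells TGFβ1 replicate 3 lay below untreated replicate 1. Its log2 fold change was 0.38 ± 0.10 (adjusted p = 0.0313) in PBRM1 KO cells, 0.24 ± 0.10 (adjusted p = 0.153) in control cells and 0.31 ± 0.07 (adjusted p = 0.00688) averaged over both. Sc5d also had fractional counts in 11 libraries.

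**Figure D3:**
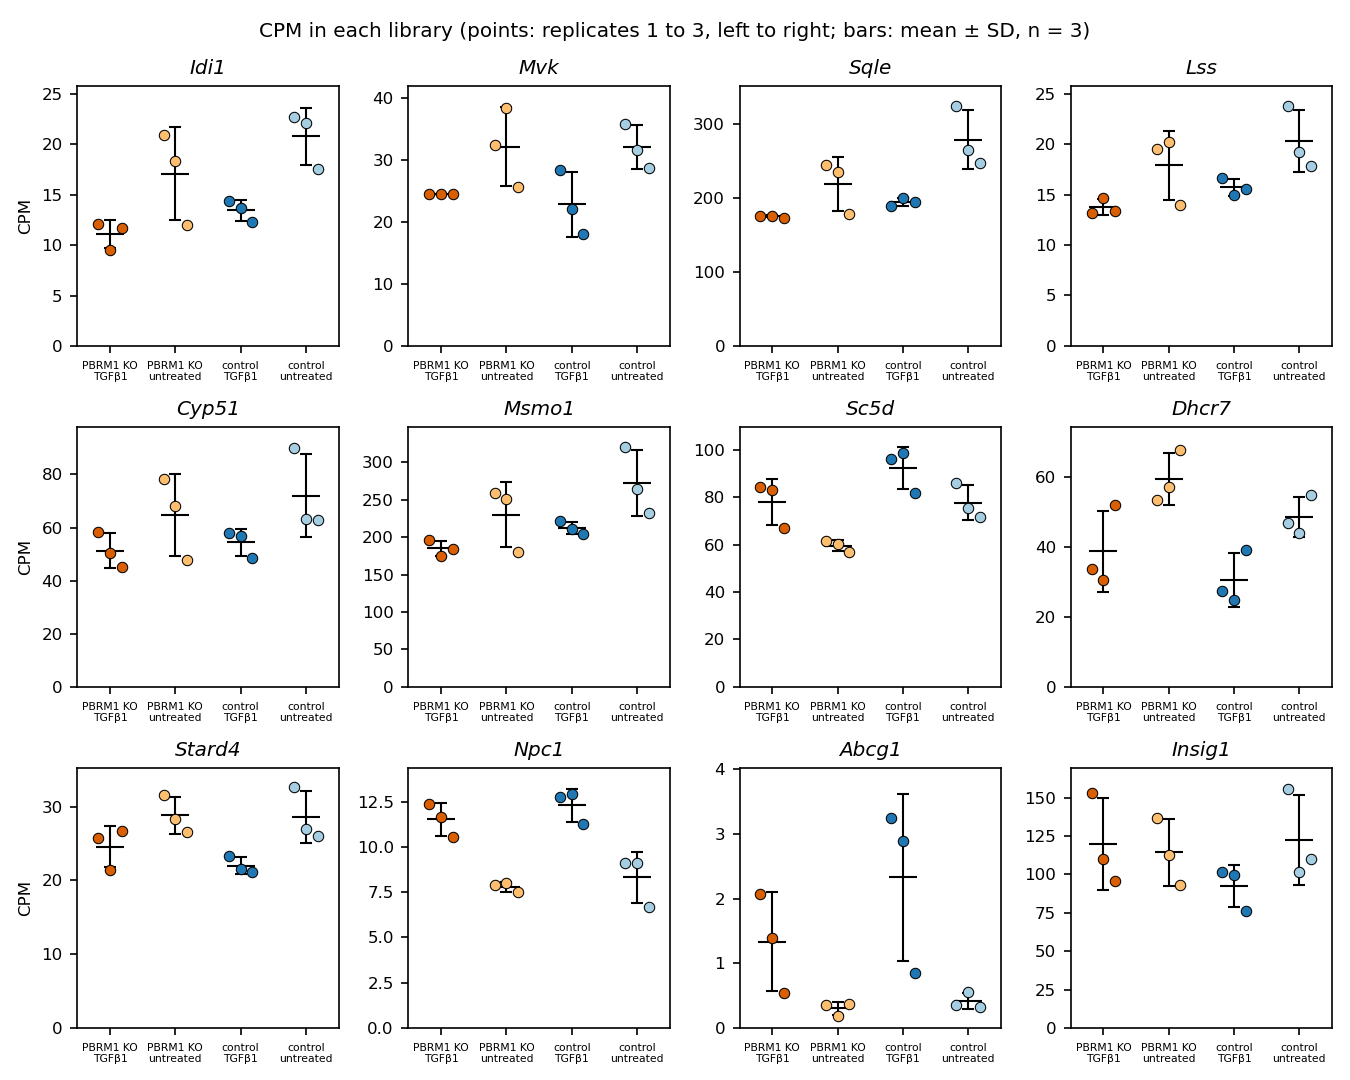
CPM of 12 members in each library, by group, with points for the 3 replicates and bars for the mean ± SD (n = 3); every axis starts at 0. Sqle lies at 174 to 176 CPM in all PBRM1 KO libraries with TGFβ1, and Abcg1 is low in every untreated library and in PBRM1 KO TGFβ1 replicate 3.

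The other sterol enzymes did not pass in any of these contrasts in the main edgeR fit. With the replicate block Ebp (adjusted p = 0.0256) and Fdft1 (adjusted p = 0.046) passed for TGFβ1 averaged over both genotypes, and Fdft1 in control cells (adjusted p = 0.0181). Without the block Ebp passed for averaged TGFβ1 with at least 10 CPM, without control TGFβ1 replicate 3, and without both TGFβ1 libraries numbered 3. Fdft1 passed in control cells without a filter, and for averaged TGFβ1 without untreated PBRM1 KO replicate 3. Ebp, a sterol isomerase, ran from 34.3 to 48.0 CPM with an averaged change of 0.20 ± 0.07 (adjusted p = 0.0556) without the block. Once scaled, its TGFβ1 and untreated libraries overlapped in control cells and did not in PBRM1 KO cells. Fdft1, squalene synthase, ran from 78.2 to 139.5 CPM with changes between −0.36 and 0.04 in the 4 contrasts between single groups. Nsdhl, the dehydrogenase of the demethylating complex, ran from 19.3 to 36.8 CPM with changes between −0.23 and 0.09. Hsd17b7, the ketoreductase of that complex, ran from 16 to 29.8 CPM with changes between −0.24 and −0.13. Tm7sf2, a sterol reductase, ran from 12.6 to 20 CPM with changes between −0.04 and 0.11.

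Taken library by library, the median of the 18 enzymes stood at log2 −0.39 to −0.32 in PBRM1 KO cells with TGFβ1, against −0.57 to −0.10 in untreated PBRM1 KO cells, relative to untreated control cells. It stood at −0.45 to −0.19 in control cells with TGFβ1, against −0.14 to 0.15 in untreated control cells. The ranges did not overlap in control cells, while untreated PBRM1 KO replicate 3 was the lowest of all 12 libraries. The median of 15 mitosis genes was also lower in the TGFβ1 libraries, at −0.42 to −0.25 in PBRM1 KO cells with TGFβ1, −0.05 to 0.00 in untreated PBRM1 KO cells, −0.32 to −0.22 in control cells with TGFβ1 and −0.08 to 0.05 in untreated control cells. Summed counts of 4 fibroblast markers were 6.26 to 16.5 CPM in PBRM1 KO cells with TGFβ1, 6.06 to 8.44 CPM in untreated PBRM1 KO cells, 7.38 to 14.3 CPM in control cells with TGFβ1 and 6.60 to 7.14 CPM in untreated control cells. The part of these lists in the sterol results was not tested.

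In the main edgeR fit, DESeq2 and limma-voom no call was made among the regulators of the pathway. Of Srebf1, Srebf2, Scap, Insig1 and Insig2, 0 passed there in any of the 7 contrasts. By edgeR 3 had an unadjusted p below 0.05 in at least 1 contrast. Insig1 passed for TGFβ1 in control cells with the replicate block and without a filter. Insig2 passed for TGFβ1 averaged over both genotypes without untreated control replicate 2, and without untreated PBRM1 KO replicate 1. Srebf2 was counted at 80.3, 68.1 and 66.2 CPM in PBRM1 KO cells with TGFβ1, against 72.4, 77.3 and 62.0 CPM in untreated PBRM1 KO cells, and 79.6, 77.5 and 68.6 CPM in control cells with TGFβ1, against 97.6, 79.3 and 76.3 CPM in untreated control cells. The groups overlapped, and the averaged change was −0.08 ± 0.08 (adjusted p = 0.484). Srebf1 was counted at 52.1, 52.8 and 50.3 CPM in PBRM1 KO cells with TGFβ1, against 42.8, 50.2 and 44.1 CPM in untreated PBRM1 KO cells, and 46.2, 49.0 and 47.6 CPM in control cells with TGFβ1, against 42.9, 41.6 and 45.3 CPM in untreated control cells. Its TGFβ1 libraries lay above the untreated ones within each genotype by small margins, and the averaged change was 0.15 ± 0.06 (adjusted p = 0.0752). The counts do not say how much of either factor was cut and nuclear.

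Scap, the escort of the SREBPs, was counted at 64.8, 59.0 and 64.4 CPM in PBRM1 KO cells with TGFβ1, against 60.3, 66.2 and 64.0 CPM in untreated PBRM1 KO cells, and 61.8, 58.7 and 62.8 CPM in control cells with TGFβ1, against 61.7, 64.2 and 52.5 CPM in untreated control cells. Its averaged change was 0.01 ± 0.06 (adjusted p = 0.964) and its sign turned with RLE scaling, while the groups overlapped in both genotypes. Insig1, which holds SCAP back and is itself an SREBP target, was counted at 153, 110.1 and 95.7 CPM in PBRM1 KO cells with TGFβ1, against 137, 113 and 93.3 CPM in untreated PBRM1 KO cells, and 101, 99.4 and 76.5 CPM in control cells with TGFβ1, against 156, 102 and 109.9 CPM in untreated control cells. Its averaged change was −0.18 ± 0.14 (adjusted p = 0.363), with 0.05 ± 0.19 (adjusted p = 0.901) in PBRM1 KO cells, where the groups overlapped, and −0.41 ± 0.19 (adjusted p = 0.216) in control cells, where they did not. Insig2, its relative whose transcription does not depend on SREBPs, was counted at 27.5, 26.4 and 24.8 CPM in PBRM1 KO cells with TGFβ1, against 27.5, 29.5 and 31.9 CPM in untreated PBRM1 KO cells, and 27.5, 26.4 and 25.9 CPM in control cells with TGFβ1, against 30.6, 26.8 and 31.5 CPM in untreated control cells. The PBRM1 KO groups met at 27.5 CPM, the control groups overlapped, and the averaged change was −0.17 ± 0.07 (adjusted p = 0.0745).

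Among genes of cholesterol transport, Npc1 and Abcg1 rose and Stard4 fell with TGFβ1 averaged over both genotypes, beside 25.7% of all genes called. Npc1, the lysosomal membrane protein that exports cholesterol from endocytosed lipoprotein, was counted at 12.4, 11.7 and 10.5 CPM in PBRM1 KO cells with TGFβ1, against 7.91, 8.01 and 7.49 CPM in untreated PBRM1 KO cells, and 12.7, 12.9 and 11.3 CPM in control cells with TGFβ1, against 9.13, 9.12 and 6.70 CPM in untreated control cells. All 6 TGFβ1 libraries lay above all 6 untreated ones. Its log2 fold change was 0.55 ± 0.13 (adjusted p = 0.0182) in PBRM1 KO cells, 0.56 ± 0.13 (adjusted p = 0.0205) in control cells and 0.55 ± 0.09 (adjusted p = 0.000947) averaged over both.

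Abcg1, an LXR target that moves cholesterol to HDL, was a low gene, at 2.08, 1.39 and 0.536 CPM in PBRM1 KO cells with TGFβ1, against 0.356, 0.182 and 0.370 CPM in untreated PBRM1 KO cells, and 3.24, 2.89 and 0.852 CPM in control cells with TGFβ1, against 0.362, 0.553 and 0.319 CPM in untreated control cells. These are 22, 14 and 6 counts in PBRM1 KO cells with TGFβ1, against 4, 2 and 4 in untreated PBRM1 KO cells, and 30, 32 and 9 in control cells with TGFβ1, against 4, 6 and 3 in untreated control cells. The groups did not overlap within a genotype, and TGFβ1 replicate 3 was the lowest TGFβ1 library in both. The log2 fold change was 2.07 ± 0.65 (adjusted p = 0.057) in PBRM1 KO cells, 2.44 ± 0.57 (adjusted p = 0.02) in control cells and 2.26 ± 0.43 (adjusted p = 0.00223) averaged over both. Its fellow exporter Abca1, which loads cholesterol on apolipoprotein A-I, was at the edge of detection with 0 to 4 counts a library. Abca1 was counted at 0, 0.299 and 0.0894 CPM in PBRM1 KO cells with TGFβ1, against 0.0889, 0.0910 and 0 CPM in untreated PBRM1 KO cells, and 0.324, 0.362 and 0.0473 CPM in control cells with TGFβ1, against 0, 0.0921 and 0.319 CPM in untreated control cells, and was not tested. Stard4, which carries cholesterol between membranes and is an SREBP2 target, was counted at 25.7, 21.4 and 26.6 CPM in PBRM1 KO cells with TGFβ1, against 31.6, 28.3 and 26.5 CPM in untreated PBRM1 KO cells, and 23.3, 21.5 and 21.1 CPM in control cells with TGFβ1, against 32.6, 27.0 and 26.1 CPM in untreated control cells. Control groups did not overlap, PBRM1 KO groups did, and the averaged change was −0.31 ± 0.08 (adjusted p = 0.0149).

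Among genes of fatty acid synthesis no call was made: of Acly, Acaca, Fasn and Scd2, 0 passed in any of the 7 contrasts by edgeR, DESeq2 or limma-voom, and 0 had an unadjusted p below 0.05 by edgeR. Fasn, fatty acid synthase, was counted at 239, 208 and 242 CPM in PBRM1 KO cells with TGFβ1, against 229, 223 and 205 CPM in untreated PBRM1 KO cells, and 219.7, 251 and 237 CPM in control cells with TGFβ1, against 278, 238 and 204 CPM in untreated control cells. The groups overlapped in both genotypes, and the averaged change was 0.02 ± 0.07 (adjusted p = 0.891). Acly, which makes cytosolic acetyl-CoA from citrate for both arms, ran from 74.9 to 96.7 CPM with an averaged change of 0.10 ± 0.06 (adjusted p = 0.231). Acaca, acetyl-CoA carboxylase, ran from 30.4 to 41.1 CPM with 0.06 ± 0.08 (adjusted p = 0.573). Scd2, a stearoyl-CoA desaturase, ran from 742 to 1184 CPM with 0.11 ± 0.11 (adjusted p = 0.499). Whether the 2 arms differ in their response was not tested.

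Of 37 other genes of sterol and lipid metabolism, 33 were tested, and 6 rose and 7 fell with TGFβ1 averaged over both genotypes, beside 25.7% of all genes called. The 6 that rose were Acsl4, an acyl-CoA synthetase for polyunsaturated fatty acids (0.63 ± 0.10), Mylip, the ubiquitin ligase that degrades the LDL receptor and an LXR target (1.18 ± 0.21), Fads1, a desaturase (0.48 ± 0.09), Npc2, the soluble lysosomal partner of NPC1 (0.36 ± 0.08), Me1, a malic enzyme (0.24 ± 0.06) and Ggps1, which branches off from farnesyl diphosphate (0.25 ± 0.08). Of those that fell, the 6 with the lowest p were Elovl6, a fatty acid elongase (−0.43 ± 0.11), Erg28, a scaffold of sterol enzymes (−0.20 ± 0.06), Acsl1 (−0.47 ± 0.13), Acss2, which makes acetyl-CoA from acetate (−0.41 ± 0.12), Elovl1 (−0.23 ± 0.07) and Aacs, acetoacetyl-CoA synthetase (−0.25 ± 0.08). Their edgeR adjusted p ran from 0.00064 to 0.043. Within a genotype 5 rose and 1 fell in PBRM1 KO cells, beside 11.4% of all genes called, and 3 rose and 1 fell in control cells, beside 8.81%.

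PBRM1 KO alone gave few calls among these genes. With TGFβ1 0 of 30 members passed by edgeR, DESeq2 or limma-voom, with 1 at an unadjusted p below 0.05 by edgeR, beside 0.271% of all genes called. With the replicate block 0 of 30 passed in this contrast as well, beside 1.13% of all genes. In untreated cells 0 of 30 passed by the same 3 tools, with 7 at an unadjusted p below 0.05 by edgeR, beside 0.278% of all genes. Averaged over untreated and TGFβ1 cells, 1 of 30 passed, Sc5d, beside 1.96% of all genes. Sc5d changed by −0.32 ± 0.07 (adjusted p = 0.0407), with −0.25 ± 0.10 (adjusted p = 0.483) with TGFβ1 and −0.38 ± 0.10 (adjusted p = 0.205) untreated. From the values above, untreated PBRM1 KO libraries lay below untreated control libraries, and the groups with TGFβ1 overlapped by CPM. This call passed in 1 of 12 fits that left out 1 library.

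More members lay below than above 0 in PBRM1 KO cells, without passing the test. With TGFβ1 19 of 30 had a log2 fold change below 0, with a median of −0.04, where 50.6% of all genes lay below 0. In untreated cells 24 of 30 lay below 0, with a median of −0.14, where 50.8% of all genes did. The median of the 18 enzymes was −0.13 and −0.10 in untreated PBRM1 KO replicates 1 and 2, and −0.57 in replicate 3. The first 2 values lay within the untreated control range of −0.14 to 0.15. Many members also varied together between replicates, so the 24 are not separate observations. Fdps showed the largest untreated difference among the 30 with −0.48 ± 0.17 (adjusted p = 0.45), at 179, 236 and 133 CPM in untreated PBRM1 KO cells, against 271, 250.1 and 241 CPM in untreated control cells. The groups did not overlap for Fdps, with PBRM1 KO replicate 3 far below the others. Leaving out 1 library moved this Fdps difference between −0.29, without PBRM1 KO replicate 3, and −0.70, without PBRM1 KO replicate 2. Dhcr7 was on the other side, at 0.34 ± 0.21 (adjusted p = 0.735) with TGFβ1 and 0.29 ± 0.20 (adjusted p = 0.878) untreated. Averaged over treatments it was 0.31 ± 0.15 (adjusted p = 0.379), and it passed there with the replicate block (adjusted p = 0.0307).

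**Figure D4:**
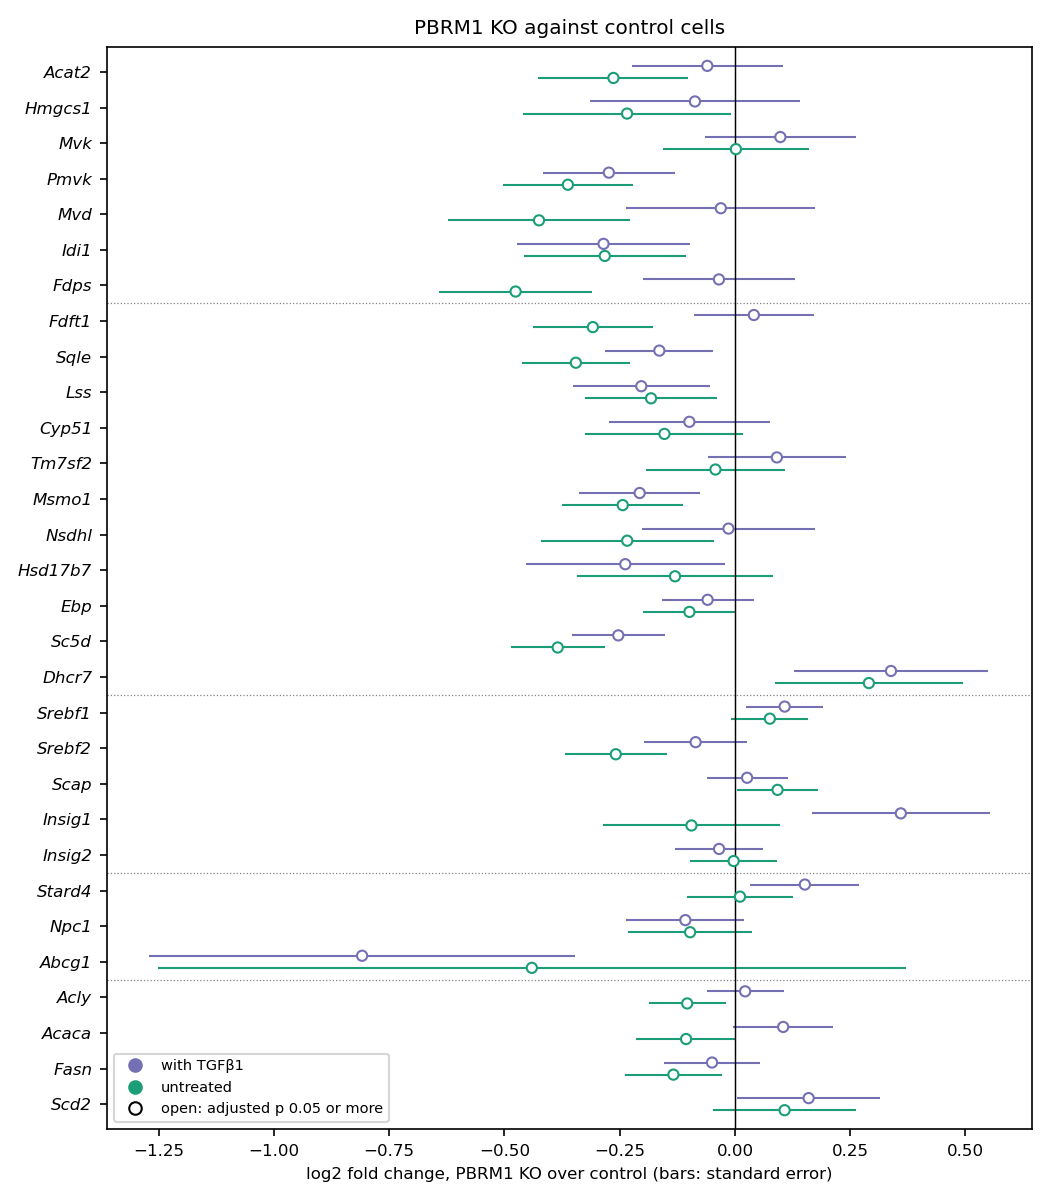
Log2 fold change of each tested member in PBRM1 KO over control cells (points, with standard errors as bars), with TGFβ1 and untreated. All points are open, since 0 of 30 members passed in either contrast, and most mevalonate and sterol genes lie left of 0 untreated.

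Whether PBRM1 KO changed the response to TGFβ1 was tested directly as the interaction. It called 0 of 30 members by edgeR, DESeq2 or limma-voom, with 0 at an unadjusted p below 0.05 by edgeR, beside 0% of all genes. The difference between the responses in PBRM1 KO and control cells was above 0 for 23 of 30 members, with a median of 0.09, where 49.4% of all genes lay below 0. This count also draws on untreated PBRM1 KO replicate 3, the lowest library for the sterol enzymes, and its members are not separate observations. The 3 sterol genes farthest from 0 by p were Fdft1 with 0.35 ± 0.18 (adjusted p = 1), Fdps with 0.44 ± 0.23 (adjusted p = 1) and Insig1 with 0.45 ± 0.27 (adjusted p = 1). With 1 library left out these ran from 0.23 to 0.46 for Fdft1, from 0.26 (without untreated PBRM1 KO replicate 3) to 0.67 (without untreated PBRM1 KO replicate 2) for Fdps, and from 0.25 (without PBRM1 KO TGFβ1 replicate 1) to 0.60 (without untreated PBRM1 KO replicate 1) for Insig1. The Insig1 value was also 0.26 without untreated control replicate 1.

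The sterol enzymes also varied together between replicates of 1 group. After each group's mean was taken off, 12 of the 18 enzymes had a Pearson r above 0.7 with the mean of the others over the 12 libraries. Their median r was 0.82. Of all genes tested, the 18 enzymes included, 2.98% had an r above 0.7 with the mean of all 18. Acat2 had the highest r at 0.977, and Fdft1, Mvk, Msmo1 and Nsdhl stood at 0.89 to 0.94. Among the other members Srebf2 stood at 0.874, Scd2 at 0.869, Acaca at 0.737 and Insig1 at 0.709, while Srebf1 stood at 0.00 and Fasn at 0.43. Dhcr7 ran against the rest with an r of −0.63, and Ebp and Sc5d stood at 0.25 and 0.59. These are descriptions over 12 libraries with 8 degrees of freedom left by the 4 group means, and the points share their libraries.

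**Figure D5:**
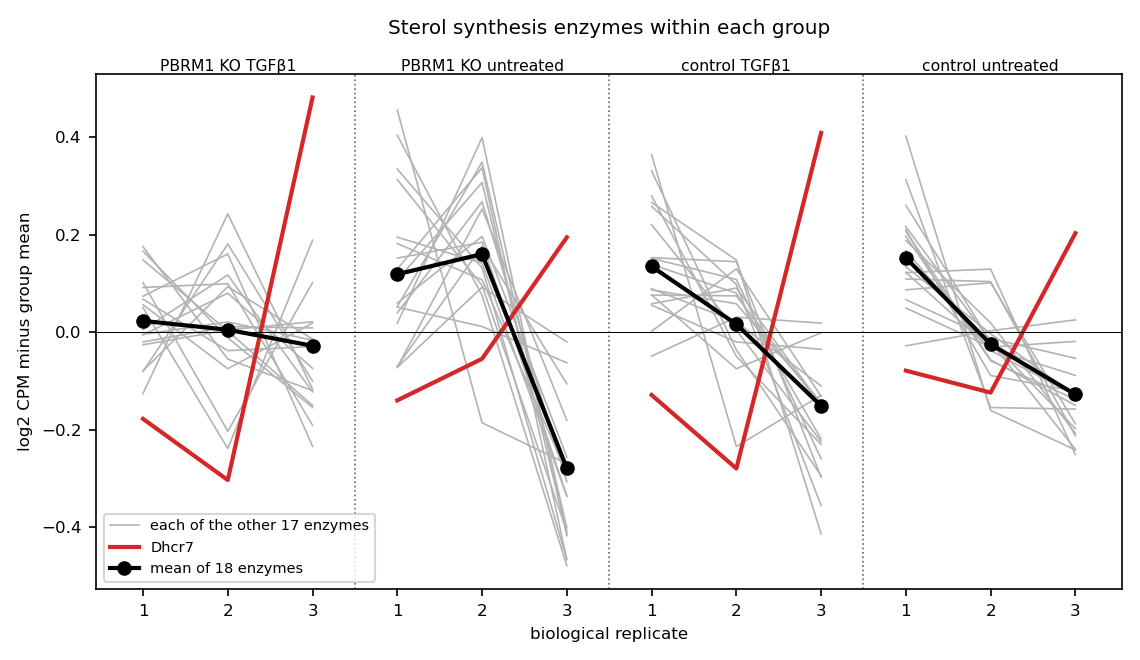
Log2 CPM of each of the 18 sterol enzymes minus its group mean in the 3 replicates of each group (grey lines, Dhcr7 in red, the mean of the 18 in black); lines join the values of 1 gene and imply no order of replicates. In all 4 groups the mean is lowest in replicate 3, where Dhcr7 is highest.

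Replicate 3 had the lowest mean of the 18 enzymes in every group, at log2 −0.03 from the group mean in PBRM1 KO cells with TGFβ1, −0.28 in untreated PBRM1 KO cells, −0.15 in control cells with TGFβ1 and −0.13 in untreated control cells. The labels do not say what a replicate number stands for. Without the 2 libraries farthest from the median, untreated PBRM1 KO replicate 3 and control TGFβ1 replicate 3, 9 of the 18 enzymes had an r above 0.7, the median was 0.68, and 1.7% of all genes passed that value. The group means taken off still included these 2 libraries, so these r values are not free of them and do not show how the enzymes vary without them. Of the 33 other genes of the pathway 6 had an r above 0.7 with all libraries and 4 without these 2.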

How the data were processed

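Messenger RNA of 12 libraries was counted at the 3′ end, with molecular identifiers to remove duplicates, per the labels' protocols. The build named was mm39 and the tools named were edgeR 3.38.4, featureCounts, Subread 2.1.1, STAR 2.7.11, fastp 0.24.0 and SAMtools 1.22.1, per the submitters' processing notes, which give no counting settings or annotation here. Per the file headers and values, the authors deposited a gene-level expected count, whole with a tolerance of 0 in 91.8% of all cells and in 72.5% of those above 0. The authors' deposited CPM differed from count divided by library total by 4.85e-06 at most. Library totals ran from 9265693 to 11250850 counts. Labelled replicates were not stated to be separate thaws, so p-values measure the spread between these samples.

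Counts were rounded, filtered with filterByExpr (14012 genes left) and scaled by TMM (factors 0.983 to 1.02). edgeR 4.0.16 in R 4.3.3 fitted 1 mean per group over all 12 libraries with the quasi-likelihood F test; the biological coefficient of variation was 12.5%. The 7 contrasts were TGFβ1 in each genotype, PBRM1 KO against control in each treatment, the interaction and both averages. Calls had a Benjamini-Hochberg adjusted p below 0.05 over all tested genes, and each log2 fold change carries a standard error, taken as the fold change divided by the root of F. The procedure was tested on simulated data. Correlations used log2 CPM with a prior count of 2.

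Members and lists were chosen with earlier results of these data known. Full values are given for members that passed in any contrast and for Srebf1, Srebf2, Scap, Insig1, Insig2, Hmgcs1, Sqle, Fasn, Abca1 and Abcg1, and up to 6 other pathway genes per direction are named by p. Ebp, Fdps, Fdft1, Insig1 and Dhcr7 were given extra values after they were seen. Deviations from group means were correlated between same-numbered libraries. In PBRM1 KO cells with and without TGFβ1 the 3 values were 0.201, 0.139 and 0.202, and between genotypes under TGFβ1 they were 0.396, 0.416 and 0.726. The labels do not state a pairing, and no threshold for it was set. Genotype untreated was also positive for every number, at 0.149, 0.069 and 0.125. The values in PBRM1 KO cells were near these and do not by themselves establish pairing. Alternatives were RLE scaling, library totals, no filter, at least 10 CPM, DESeq2 1.42.0, limma-voom (limma 3.58.1), only the libraries compared, the replicate block, unrounded counts, and libraries left out. Promoter windows came from RefSeq (GRCm38.p6) by symbol, with no coordinates moved between builds.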

Additional observations from a re-analysis of the deposited data

How the results depend on the processing

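Of the 11 members called with TGFβ1 averaged over both genotypes, 10 were called under every alternative that tested them, including each library left out; Cyp51 was the exception. That count ran from 10 to 14 when 1 library was left out. The counts within single contrasts were less steady. For TGFβ1 in control cells the 4 members became 11 without a filter, 2 with limma-voom and 2 with at least 10 CPM. With at least 10 CPM only 27 members were tested. Npc1 and Abcg1 were not among them, and Idi1 and Sqle kept their calls. For TGFβ1 in PBRM1 KO cells the 3 members became 9 without a filter, 5 with DESeq2, 1 with only the libraries compared, 8 with the replicate block and 5 without both TGFβ1 libraries numbered 3. For PBRM1 KO against control untreated the 0 members became 1 without a filter (Fdps), 1 with the replicate block (Sc5d) and 1 without both TGFβ1 libraries numbered 3 (Sc5d). For PBRM1 KO against control averaged over treatments the 1 member became 0 with library totals, 2 without a filter and 3 with the replicate block. Apart from the members left untested with at least 10 CPM, the cause of these shifts was not tested. Leaving out 1 library gave 0 to 4 members for TGFβ1 in control cells, 0 to 5 for TGFβ1 in PBRM1 KO cells, 0 to 1 for genotype averaged over treatments, and 0 throughout for genotype in single treatments and for the interaction.

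For TGFβ1 in control cells and for genotype untreated, same-numbered libraries correlated at −0.08 to 0.26 and at 0.07 to 0.15. Those for genotype untreated were positive for every number. No threshold for pairing is given here, and these values do not show that numbers share nothing. With the replicate block TGFβ1 in control cells called 14 members, beside 17.1% of all genes. For the averaged TGFβ1 comparison the block called 14 members beside 34.6% of all genes, adding Hmgcs1, Fdft1 and Ebp, and for genotype averaged over treatments it added Dhcr7 and Pmvk.

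Signs were followed for 68 results, each of 1 gene in 1 contrast. These were all 30 tested members for averaged TGFβ1 and chosen members in other contrasts. Among them signs turned only for members near 0 that did not pass. Averaged over genotypes, Fasn was at −0.0167 and Nsdhl at 0.0964 without both TGFβ1 libraries numbered 3, and Scap was at −0.0026 with RLE scaling, −0.00062 without a filter, −0.0029 with DESeq2 and −0.0265 without both those libraries. With 1 library left out the averaged TGFβ1 change ran from −0.0317 to 0.0516 for Fasn, −0.0861 to 0.120 for Fdps, −0.139 to 0.0519 for Nsdhl, −0.0324 to 0.0217 for Scap and −0.0399 to 0.118 for Tm7sf2. In PBRM1 KO cells it ran from −0.146 to 0.0787 for Fdft1 and −0.156 to 0.181 for Insig1, and genotype with TGFβ1 ran from −0.152 to 0.0427 for Fdps. Of 1278 values of these 68 results under an alternative, 1135 kept direction and side of the threshold, 57 lost the call, 51 gained it and 35 changed sign. Depth limits Abcg1 and Abca1 most, which had few counts per library.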
